A study of Homo sapiens with 6 samples.

Results

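The genes CSF1R, CORO1A, LAPTM5, CD14 and CD68 are known mainly from leukocytes, the white blood cells, and they are described here in 2 lung carcinoma lines. They were chosen by name, with earlier results of these data known, and all 5 were found among the 6641 genes of the deposited table. RNA sequencing covered 6 libraries, 3 labelled HCC827_Er and 3 labelled HCC827. HCC827 is an established line of human non-small cell lung cancer that carries an activated form of the growth factor receptor EGFR. HCC827_Er is the line that the series title calls resistant, in a study of resistance to EGFR inhibitors and of histone crotonylation. The drug, its dose, the time of selection and whether the line is 1 clone are unstated in the sources used here, and no further treatment of either line is named. The RNA protocol of the labels speaks of tissue samples, while the other labels name cell lines.

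Values are FPKM, fragments scaled to transcript length and to the number of mapped fragments, so levels can be set side by side between genes. Sums over the listed genes lay between 184633 and 190415 FPKM in HCC827_Er and between 222927 and 224211 FPKM in HCC827. Depth is unknown, the values carry 2 decimals, and the labels do not say whether the 3 libraries per line are separate cultures, so a p-value here covers library spread alone, which may be technical. Genes of equal level were rare in the table. Of 2362 genes with a mean of at least 10 FPKM, 16 had a log2 ratio between the lines within 0.4 of equality. Epithelial markers were uneven between the lines and did not all go the same way. The keratin KRT8 was lower in HCC827_Er, at 989 to 1048 FPKM, against 1693 to 1780 FPKM in HCC827. The surface protein EPCAM stood at 266 to 315 FPKM in HCC827_Er and 29.9 to 30.6 FPKM in HCC827, and the keratin KRT19 at 1059 to 1105 FPKM in HCC827_Er and 376 to 404 FPKM in HCC827. The epithelial transcription factor GRHL2 stood at 13.28, 16.37 and 12.93 FPKM in HCC827_Er, against 0.16, 0.23 and 0.24 FPKM in HCC827, and the GTPase RAB25 at 9.77, 11.66 and 9.39 FPKM in HCC827_Er, against 0, 0.11 and 0.17 FPKM in HCC827. The leukocyte phosphatase PTPRC, the myeloid transcription factor SPI1 and the signalling adaptor TYROBP, which define leukocytes more strictly, were not analysed here.

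As background, CSF1R is the receptor kinase through which the growth factors CSF1 and IL34 keep macrophages alive. CORO1A encodes coronin 1A, which binds actin in leukocytes and lets T cells survive and migrate. LAPTM5 is a membrane protein of lysosomes that takes antigen receptors to degradation. CD14 is a surface protein of monocytes that hands bacterial lipopolysaccharide to the receptor TLR4, and CD68 is a heavily glycosylated lysosomal membrane protein used as a stain for macrophages. In macrophages CSF1R, CD14 and CD68 are known targets of the factor PU.1, the product of SPI1, and many cell types outside the blood hold CD68 because they hold lysosomes.

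The starts of CSF1R, LAPTM5 and CD68 are shown because they set a gene with a pair of promoters, a gene that was higher in HCC827_Er and a gene that was lower beside each other. CSF1R has an upstream start, known from trophoblast, and a downstream start, known from macrophages; FPKM per gene does not tell them apart. The sequences are RefSeq's on GRCh38.p14, 250 bases before to 50 bases after each start, 5′ to 3′ on the strand of the gene. Capitals mark GGAAGT, a sequence in many ETS factor sites including that of PU.1, and TGACTCA, the site of AP-1, both searched on both strands. GGAA not followed by GT was left unmarked.
CSF1R, upstream start, chr5:150113316-150113615, minus strand: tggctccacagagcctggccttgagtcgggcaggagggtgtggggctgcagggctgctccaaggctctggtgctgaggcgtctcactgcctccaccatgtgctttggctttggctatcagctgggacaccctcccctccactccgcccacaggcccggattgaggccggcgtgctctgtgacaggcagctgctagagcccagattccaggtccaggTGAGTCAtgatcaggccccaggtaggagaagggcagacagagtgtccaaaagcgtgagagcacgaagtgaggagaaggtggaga
CSF1R, downstream start, chr5:150086505-150086804, minus strand: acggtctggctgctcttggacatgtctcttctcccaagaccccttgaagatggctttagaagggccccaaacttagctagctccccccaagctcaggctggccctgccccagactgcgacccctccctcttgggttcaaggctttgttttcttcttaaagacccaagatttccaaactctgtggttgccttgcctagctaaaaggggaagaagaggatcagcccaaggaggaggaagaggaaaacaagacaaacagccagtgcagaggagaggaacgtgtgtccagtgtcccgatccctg
LAPTM5, chr1:30757725-30758024, minus strand: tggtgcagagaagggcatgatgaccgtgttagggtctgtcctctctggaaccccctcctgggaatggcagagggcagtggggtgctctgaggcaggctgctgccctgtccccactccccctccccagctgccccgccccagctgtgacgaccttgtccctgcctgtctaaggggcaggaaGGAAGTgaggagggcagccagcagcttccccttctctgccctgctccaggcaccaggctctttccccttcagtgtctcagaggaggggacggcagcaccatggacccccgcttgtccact
CD68, chr17:7579388-7579687, plus strand: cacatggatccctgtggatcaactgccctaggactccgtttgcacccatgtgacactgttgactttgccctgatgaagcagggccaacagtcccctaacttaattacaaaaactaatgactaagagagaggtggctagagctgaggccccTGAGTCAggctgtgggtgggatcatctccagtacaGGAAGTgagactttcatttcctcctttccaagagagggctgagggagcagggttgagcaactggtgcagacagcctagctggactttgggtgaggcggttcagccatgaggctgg

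Of the 5 genes, 2 had GGAAGT in this window, LAPTM5 at base -70 and CD68 at base -65 from the start, counting the last base before the start as -1. This hexamer was found in 22.8% of all 35116 promoters of the same length. TGACTCA was found at the upstream start of CSF1R, at base -34, and in CD14, at base -223, and in CD68, at base -100, against 4.95% of all promoters. The longer GAGGAAGT, which holds GGAAGT, was in none of the 6 windows of the 5 genes and in 2.59% of all promoters. CACCC, a motif of Sp and KLF factors, was in 5 of the 6 windows and in 59.9% of all promoters. CD68 was the only gene of the 5 with both GGAAGT and TGACTCA in these windows, and CORO1A had neither. A match is a run of letters and not a bound site.

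CSF1R, CORO1A, LAPTM5 and CD14 were higher in HCC827_Er, at single digits of FPKM, and lay under 1 FPKM in every HCC827 library. CD68 went the other way and stood at over 100 FPKM in both lines. CSF1R rose the most in the ratio of means, 23.7-fold, and CD68 was 1.48-fold lower in HCC827_Er. In no gene of the 5 did the libraries of the lines overlap, which was so for 97.1% of the 5276 tested genes (50% with HCC827_Er higher and 47.1% with HCC827_Er lower). Differences below are HCC827_Er minus HCC827 on the log2(FPKM + 1) scale, where the change of a low gene comes out too small. They were tested with limma, with p-values adjusted over all 5276 genes. Genes were called where the difference was 1 or more in either direction, the 2-fold minimum, and its adjusted p was below 0.05.

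**Figure D1:**
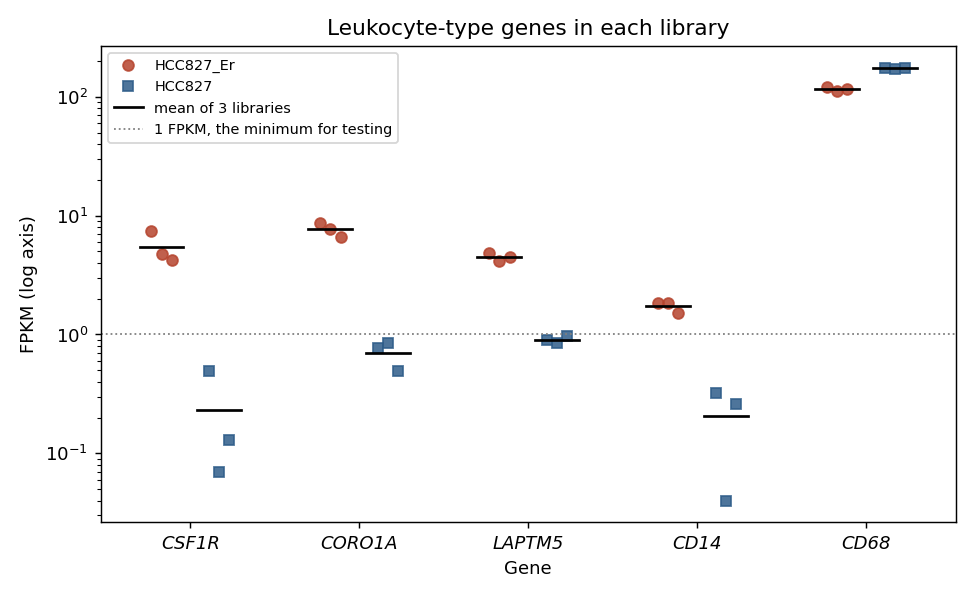
FPKM of the 5 genes on a log axis, HCC827_Er (circles) left of HCC827 (squares), with 1 point for each library, a bar at the mean of 3 libraries and a dotted line at 1 FPKM. CSF1R, CORO1A, LAPTM5 and CD14 lie above 1 FPKM in every HCC827_Er library and below it in every HCC827 library, and CD68 lies between 113 and 121 FPKM in HCC827_Er and between 170 and 176 FPKM in HCC827.

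CSF1R (ENSG00000182578, GENCODE 29 on GRCh38, chromosome 5, bases 150053291 to 150113372, minus strand) stood at 7.40, 4.75 and 4.21 FPKM in HCC827_Er, against 0.49, 0.07 and 0.13 FPKM in HCC827. Every HCC827_Er library was above every HCC827 library, and the first library of each line was its highest. The mean was 5.45 ± 1.71 FPKM in HCC827_Er and 0.230 ± 0.227 FPKM in HCC827 (SD, n = 3 each), a difference of 2.38 (SE 0.202, limma adjusted p = 5.5e-06). The lowest HCC827_Er library was 8.59 times the highest HCC827 library. Spread within a line was wider for CSF1R than for the other genes, with an SD of 31.3% of the mean in HCC827_Er and 98.8% in HCC827. Without the first HCC827_Er library the difference was 2.17. The ratio of means rests on the low HCC827 values, and without the first HCC827 library it was 54.5; the others left out in turn gave 17.6 to 26.4.

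CORO1A (ENSG00000102879, chromosome 16, bases 30182827 to 30189076, plus strand) stood at 8.60, 7.70 and 6.67 FPKM in HCC827_Er, against 0.77, 0.85 and 0.49 FPKM in HCC827. The lines were far apart, with the lowest HCC827_Er library at 7.85 times the highest HCC827 library. The mean was 7.66 ± 0.966 FPKM in HCC827_Er and 0.703 ± 0.189 FPKM in HCC827 (SD, n = 3 each), a difference of 2.35 (SE 0.136, limma adjusted p = 4.93e-07). Part of its exons, 541 of 4871 bases, is also annotated on the other strand as an antisense gene, and a stretch of 153 bases is 99.3% identical to an annotated pseudogene. Neither of those was analysed here, and whether the counting used strand is not stated, so a share of the CORO1A reads is uncertain.

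LAPTM5 (ENSG00000162511, chromosome 1, bases 30732469 to 30757820, minus strand) stood at 4.86, 4.12 and 4.49 FPKM in HCC827_Er, against 0.89, 0.85 and 0.97 FPKM in HCC827. It had the tightest libraries of the genes that rose, with an SD of 8.24% of the mean in HCC827_Er and 6.76% in HCC827. The mean was 4.49 ± 0.370 FPKM in HCC827_Er and 0.903 ± 0.0611 FPKM in HCC827 (SD, n = 3 each), a difference of 1.53 (SE 0.109, limma adjusted p = 1.76e-06). In the ratio of means LAPTM5 was 4.97-fold higher, the smallest ratio of the genes that rose.

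CD14 (ENSG00000170458, chromosome 5, bases 140631728 to 140633701, minus strand) stood at 1.83, 1.84 and 1.53 FPKM in HCC827_Er, against 0.32, 0.04 and 0.26 FPKM in HCC827. It was the lowest of the 5 genes in HCC827_Er in every library. The mean was 1.73 ± 0.176 FPKM in HCC827_Er and 0.207 ± 0.147 FPKM in HCC827 (SD, n = 3 each), a difference of 1.19 (SE 0.122, limma adjusted p = 1.8e-05). The ratio of means was 8.39, above that of LAPTM5, while the log2(FPKM + 1) difference was below it, since the added 1 weighs more on the lower gene.

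CD68 (ENSG00000129226, chromosome 17, bases 7579467 to 7582113, plus strand) stood at 121.43, 112.72 and 117.26 FPKM in HCC827_Er, against 176.09, 170.39 and 175.36 FPKM in HCC827. Every HCC827_Er library was below every HCC827 library, and the spread within a line was small, 3.72% of the mean in HCC827_Er and 1.78% in HCC827. The mean was 117 ± 4.36 FPKM in HCC827_Er and 174 ± 3.10 FPKM in HCC827 (SD, n = 3 each), a difference of -0.57 (SE 0.0496, limma adjusted p = 6.42e-06), under the 2-fold minimum, so CD68 was not called. An adjusted p under 0.05 was reached by 98.3% of the tested genes, and 12.9% of them had a smaller absolute difference than CD68. A processed transcript on the same strand, ENSG00000264772, shares 81.7% of the exonic bases of CD68. It stood at 5.62, 5.55 and 6.99 FPKM in HCC827_Er, against 12.71, 13.57 and 10.97 FPKM in HCC827, and the split of reads between it and CD68 is uncertain.

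In absolute level CD68 was first in both lines. In HCC827_Er the order was CD68, CORO1A, CSF1R, LAPTM5 and CD14. The libraries of CORO1A and CSF1R overlapped, as did those of CSF1R and LAPTM5, while CD68 stood 15.3-fold above CORO1A and LAPTM5 2.59-fold above CD14 with no overlap. In HCC827 the order was CD68, LAPTM5, CORO1A, CSF1R and CD14, and CD68 stood 193-fold above LAPTM5. Each of the other neighbours in that order overlapped, so adjacent low genes could not be ranked in HCC827. Further apart in the order, every LAPTM5 library lay above every CSF1R and CD14 library. Every CORO1A library lay above every CD14 library.

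Set against all listed genes, CSF1R was above 52.9% of them in HCC827_Er and above 14.6% in HCC827. CORO1A was above 59.7% in HCC827_Er and 25.1% in HCC827. LAPTM5 was above 49.7% in HCC827_Er and 28.2% in HCC827, and CD14 above 33.7% in HCC827_Er and 13.6% in HCC827. CSF1R, CORO1A and LAPTM5 thus stood near the middle of the listed genes in HCC827_Er, and CD14 in their lower part. CD68 was above 96.3% of the listed genes in HCC827_Er and above 97.3% in HCC827. The summed level of the genes other than CD68 came to between 14.4% and 18.7% of that of CD68 in HCC827_Er and between 1.05% and 1.40% in HCC827. CSF1R came to between 1.36% and 2.78% of EPCAM in HCC827_Er and between 0.234% and 1.60% in HCC827, so against this epithelial gene, which rose too, the lines overlapped. The overlap came from the first HCC827 library, at 1.60%, while the other HCC827 libraries stood at 0.234% and 0.435%, below every HCC827_Er library. These ratios were chosen after the values had been seen.

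Of the 5 genes, 4 were called higher and none lower, and of all 5276 tested genes 24.7% were called higher and 19.7% lower, 44.4% in all. The test took genes with at least 1 FPKM in 3 of the 6 libraries, and CSF1R, CORO1A, LAPTM5 and CD14 met that through the HCC827_Er libraries alone, so their direction was fixed by the minimum. Of the 565 tested genes under 1 FPKM in all HCC827 libraries and at or above it in all HCC827_Er libraries, 74.3% were called higher, with a median difference of 1.49. CSF1R and CORO1A lay above that median, LAPTM5 close to it and CD14 below it.

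**Figure D2:**
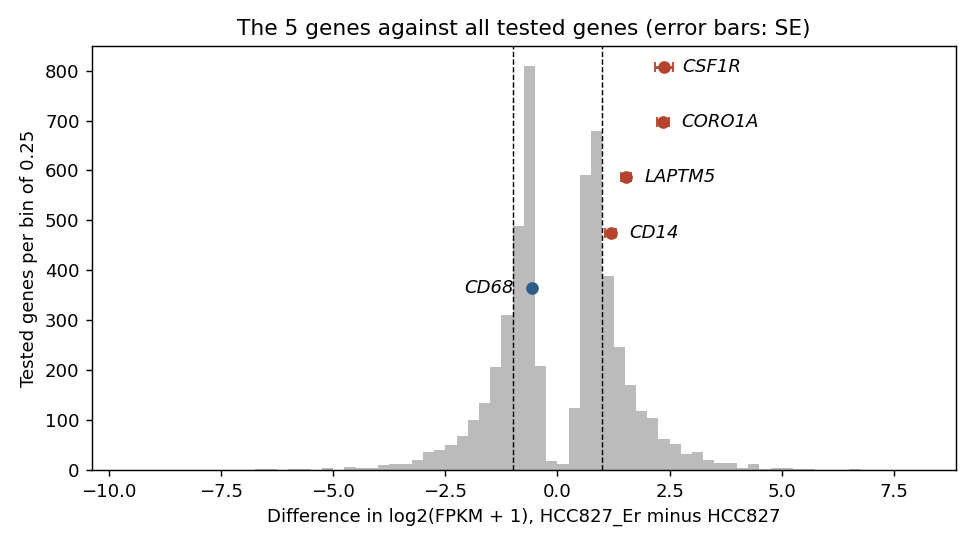
Differences in log2(FPKM + 1), HCC827_Er minus HCC827, of the 5276 tested genes as a histogram, with the 5 genes as points (error bars, SE; heights are arbitrary) and dashed lines at -1 and 1. Few genes lie near 0, CD68 at -0.57 lies among the smaller negative differences, and CSF1R and CORO1A lie in the upper tail, each above about 95% of the tested genes.

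The scaling of the libraries bears on the direction of small differences. Median-ratio rescaling moved the difference of the median gene by -0.30 and rescaling to equal sums moved it by 0.21. Higher genes made up 55.6% of all calls as deposited, 35.1% with median-ratio rescaling and 69.7% with equal sums. Of all tested genes, 17.1% were called higher and 31.7% lower with median-ratio rescaling, and 34.6% higher and 15.0% lower with equal sums. CSF1R, CORO1A, LAPTM5 and CD14 were called higher under all 3 scalings, with CD14 at 1.05 under median-ratio rescaling, just over the minimum. CD68 stood at -0.91 with median-ratio rescaling and at -0.32 with equal sums, called under none of them. With a pseudocount of 5, CSF1R at 0.99, LAPTM5 at 0.68 and CD14 at 0.37 missed the minimum, and CORO1A at 1.15 passed it.

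Other genes of leukocytes were read from 4 lists with 86 names, of which 19 were in the table and 11 were tested. Of those 11, 9 were called higher and none lower, where 24.7% of all tested genes were called higher and 19.7% lower (7 higher with median-ratio rescaling, 10 with equal sums, none lower in either), with a median difference of 1.72 against 0.43 for all tested genes. As for the members, 5 of the 11 (CYTIP, ITGAX, LCK, LSP1 and S100A12) passed the minimum through HCC827_Er alone, which fixed their direction. Of all tested genes of that kind 74.3% were called higher. The lists were written with earlier results of these data known. On the pan-leukocyte list LCP1 and ARHGDIB stood above CD68 in HCC827_Er and below it in HCC827. The actin bundling protein LCP1 averaged 136 ± 3.57 FPKM in HCC827_Er and 11.7 ± 0.505 FPKM in HCC827 (SD, n = 3 each; difference 3.43, limma adjusted p = 9.42e-10). ARHGDIB, a signalling protein abundant in blood cells, averaged 192 ± 4.71 FPKM in HCC827_Er and 54.6 ± 5.45 FPKM in HCC827 (difference 1.80, limma adjusted p = 5.82e-08). ITGB2, the shared beta chain of the leukocyte integrins, rose to 13.7 ± 1.66 FPKM in HCC827_Er, against 3.33 ± 1.08 FPKM in HCC827 (difference 1.79, limma adjusted p = 1.32e-05).

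The alpha chains that pair with ITGB2 did not move as one. ITGAX rose to 2.66 ± 0.473 FPKM in HCC827_Er, against 0.757 ± 0.0850 FPKM in HCC827 (difference 1.05, limma adjusted p = 4.35e-05), and was not called with median-ratio rescaling or without the first HCC827_Er library. ITGAM, too low to test, stood at 0.16, 0.24 and 0.16 FPKM in HCC827_Er, against 0.70, 1.22 and 0.77 FPKM in HCC827. ITGAL, also untested, stood at 0.97, 1.03 and 0.38 FPKM in HCC827_Er, against 0.03, 0.65 and 0 FPKM in HCC827, with overlap between the lines.

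Single libraries weighed on LSP1, an actin-binding protein of leukocytes. It stood at 14.47, 1.25 and 1.17 FPKM in HCC827_Er, against 0.29, 0.14 and 0 FPKM in HCC827, and its difference of 1.89 (limma adjusted p = 0.02) was 0.96 without the first HCC827_Er library, under the minimum. Without the third HCC827 library its adjusted p was 0.0551. That first HCC827_Er library was also the highest for CSF1R, CORO1A, LAPTM5 and CD68. It was the highest of its line for 36.0% of all tested genes, against 30.1% and 32.8% for the other HCC827_Er libraries; its part in these values was not tested beyond the values without it. The pan-leukocyte count, 6 of 7 called higher, was 5 without that library or without the third HCC827 library. With all 6 libraries 24.7% of all tested genes were called higher.

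Few markers of single blood lineages were in the table, and those were low. The rule for listing genes is unknown, so a name missing from the table may still be expressed. The monocyte and macrophage list had 4 of 27 names in the table, with a summed level between 3.79 and 5.65 FPKM in HCC827_Er and between 2.83 and 4.93 FPKM in HCC827, which overlap. Its scavenger receptor MARCO averaged 0.790 ± 0.397 FPKM in HCC827_Er and 2.01 ± 0.767 FPKM in HCC827 (difference -0.75, limma adjusted p = 0.00794, not called). The lymphoid list had 2 of 21 names, with the kinase LCK at 3.97 ± 0.0757 FPKM in HCC827_Er and 0.483 ± 0.388 FPKM in HCC827 (difference 1.77, limma adjusted p = 1.26e-05). Of 13 names of granulocytes and mast cells, 3 were in the table, all listed at 0 in each HCC827 library. Among them S100A12, a calcium-binding protein of neutrophils, stood at 1.72, 2.95 and 2.30 FPKM in HCC827_Er (limma adjusted p = 4.22e-06), and the enzyme MPO and the receptor KIT stayed at or below 0.35 FPKM. The summed level of the pan-leukocyte list was between 363 and 383 FPKM in HCC827_Er and between 77.2 and 85.5 FPKM in HCC827. In bulk RNA a few cells with much of a transcript and many cells with little of it cannot be told apart, and the part of other cell types in the 5 genes was not tested.

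Fibroblast and endothelial lists also had few names in the table. Of 10 fibroblast names 3 were in the table, with COL1A1, a collagen chain, at 10.1 ± 0.932 FPKM in HCC827_Er and 0.750 ± 0.243 FPKM in HCC827 (difference 2.67, limma adjusted p = 2.23e-07), while COL3A1 was listed at 0 in every HCC827_Er library and at 0.25, 0.26 and 0.34 FPKM in HCC827. LUM, a matrix proteoglycan, stood at 0.96, 0.32 and 0.31 FPKM in HCC827_Er, against 1.91, 2.41 and 1.10 FPKM in HCC827 (difference -0.87, limma adjusted p = 0.00366, not called; called lower with median-ratio rescaling, and without the first HCC827_Er or the third HCC827 library). LUM met the minimum for testing through HCC827 alone, which fixed its direction. Of 10 endothelial names 2 were in the table, and EGFL7 stood at 6.61 ± 0.386 FPKM in HCC827_Er and 9.07 ± 0.551 FPKM in HCC827 (difference -0.40, limma adjusted p = 0.00322, not called). CDH5, the cadherin of endothelial junctions, was too low to test, at 0.52, 0.75 and 0.56 FPKM in HCC827_Er and listed at 0 in each HCC827 library. On the epithelial list 9 of 11 tested genes were called higher and none lower (8 higher and 1 lower with median-ratio rescaling, 10 and 0 with equal sums). The 1 lower was KRT8, at a difference of -0.77 as deposited (limma adjusted p = 4.15e-07, not called). Over all tested genes 24.7% were called higher and 19.7% lower (17.1% and 31.7% with median-ratio rescaling, 34.6% and 15.0% with equal sums). The largest differences were those of the splicing regulator ESRP1 (4.38, limma adjusted p = 9.42e-10), the transcription factor GRHL2 (3.64, limma adjusted p = 2.05e-08) and the GTPase RAB25 (3.36, limma adjusted p = 3.4e-08), beside EPCAM (3.25, limma adjusted p = 2.26e-09). GRHL2 and RAB25 met the minimum for testing through HCC827_Er alone, which fixed their direction.

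**Figure D3:**
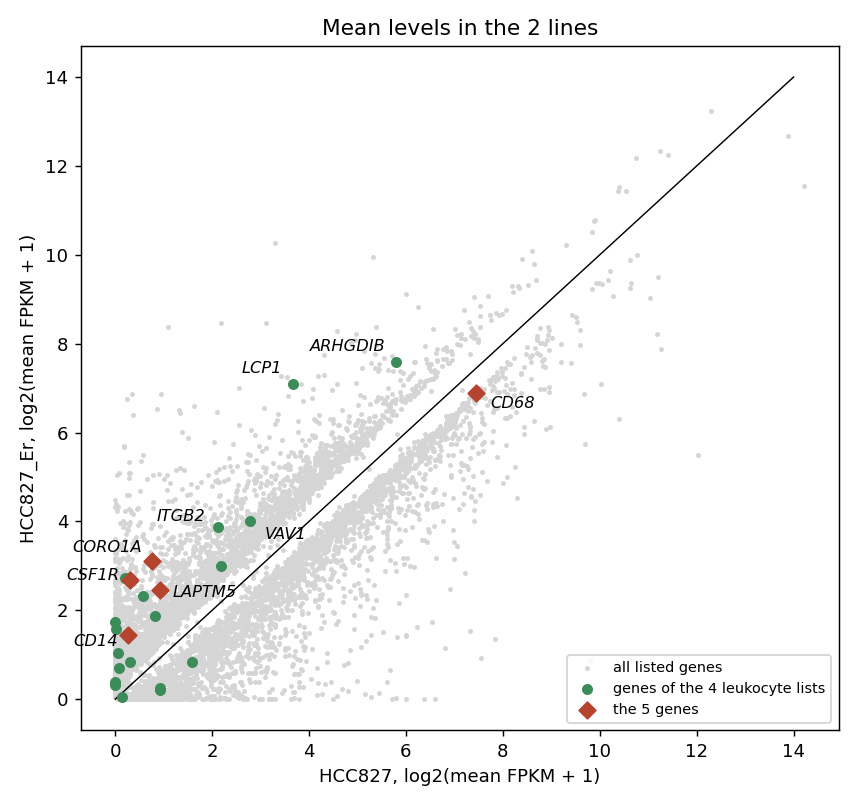
Mean level in HCC827_Er (vertical) against HCC827 (horizontal), both as log2(mean FPKM + 1), of all 6641 listed genes (grey), the 19 listed genes of the 4 leukocyte lists (green) and the 5 genes (red diamonds), with the line of equality. CSF1R, CORO1A, LAPTM5 and CD14 sit near the left edge above the line, LCP1 and ARHGDIB sit far higher, and CD68 sits below the line.

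None of the tested partners of CSF1R was called with all 6 libraries. Of the 15 names of its ligands and signalling proteins 5 were listed, and the 3 that could be tested missed the minimum (none called as deposited, 1 lower with median-ratio rescaling, 1 higher with equal sums). As deposited, 44.4% of all tested genes were called. With median-ratio rescaling 31.7% were called lower, and with equal sums 34.6% were called higher. IL34, a ligand of CSF1R, was listed at 0 in all HCC827_Er libraries and at 0.48, 0.62 and 0.87 FPKM in HCC827, and the other ligand, CSF1, was not analysed here. The Src-type kinase LYN stood at 21.8 ± 1.47 FPKM in HCC827_Er and 10.6 ± 0.561 FPKM in HCC827 (difference 0.97, limma adjusted p = 6.44e-06), just under the minimum, and was called higher without the first HCC827_Er library or the first HCC827 library (0.93 to 1.02 over the 6 libraries left out in turn). The transcription factor STAT3 stood at 63.0 ± 1.76 FPKM in HCC827_Er and 110 ± 8.53 FPKM in HCC827 (difference -0.79, limma adjusted p = 5.14e-06).

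Transcription factors of myeloid cells were likewise not called, 0 of 3 tested (1 lower with median-ratio rescaling, 1 higher with equal sums). The share called over all tested genes was 44.4% as deposited. It was 31.7% lower with median-ratio rescaling and 34.6% higher with equal sums. RUNX1 stood at 25.61, 24.32 and 23.92 FPKM in HCC827_Er, against 13.92, 10.72 and 11.43 FPKM in HCC827 (difference 0.98, limma adjusted p = 1.84e-05), and KLF4 at 11.5 ± 0.690 FPKM in HCC827_Er and 23.5 ± 0.514 FPKM in HCC827 (difference -0.97, limma adjusted p = 3.62e-06). RUNX1 was called higher without the third HCC827_Er or the first HCC827 library (0.91 to 1.08 over the 6 left out in turn), and KLF4 lower without the first HCC827_Er library (-1.01 to -0.93). IRF8, a factor of monocytes and dendritic cells that was too low to test, stood at 1.09, 1.98 and 0.65 FPKM in HCC827_Er, against 0, 0.05 and 0.12 FPKM in HCC827.

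CD14 and the protein that loads it went opposite ways. LBP, which carries lipopolysaccharide to CD14, fell to 1.89 ± 0.0757 FPKM in HCC827_Er, against 158 ± 3.33 FPKM in HCC827 (SD, n = 3 each; difference -5.79, limma adjusted p = 1.61e-10). It was the 1 gene called of 4 tested on the list of Toll-like receptor partners, and 2 were called lower with median-ratio rescaling. All tested genes had 19.7% called lower as deposited and 31.7% with median-ratio rescaling. TLR3, a receptor of double-stranded RNA, stood at 1.91 ± 0.297 FPKM in HCC827_Er and 3.35 ± 1.20 FPKM in HCC827 (difference -0.55, limma adjusted p = 0.0262, not called). The kinase IRAK2 stood at 8.64 ± 0.801 FPKM in HCC827_Er and 16.0 ± 0.576 FPKM in HCC827 (difference -0.82, limma adjusted p = 3.3e-05, not called). TLR4 and its partner LY96, through which CD14 signals, were not analysed here.

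Coronins moved both ways around CORO1A. CORO2A rose to 14.4 ± 0.516 FPKM in HCC827_Er, against 2.28 ± 0.181 FPKM in HCC827 (difference 2.23, limma adjusted p = 1.02e-07), close to the difference of CORO1A. CORO2B fell to 0.02, 0 and 0 FPKM in HCC827_Er, against 2.75, 2.87 and 3.18 FPKM in HCC827 (difference -1.96, limma adjusted p = 1.96e-07). It met the minimum for testing through HCC827 alone, which fixed its direction. CORO1C, a coronin of many tissues, was the most abundant of them at 88.8 ± 2.17 FPKM in HCC827_Er and 135 ± 3.38 FPKM in HCC827 (difference -0.60, limma adjusted p = 4.59e-06, not called). WASF3, which drives actin branching, fell to 2.17 ± 0.304 FPKM in HCC827_Er, against 6.44 ± 0.435 FPKM in HCC827 (difference -1.23, limma adjusted p = 1.19e-05).

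The list of LAPTM5 relatives and lysosomal genes had a median difference of -0.64 over 20 tested genes, against 0.43 over all tested genes. Beside lysosomal genes the 20 included the regulators NEDD4, ITCH and TFEB. Of the 20, 2 were called higher and 4 lower (2 and 9 with median-ratio rescaling, 4 and 1 with equal sums), so the balance turned with the scaling. The shares over all tested genes were 24.7% higher and 19.7% lower as deposited. They were 17.1% and 31.7% with median-ratio rescaling and 34.6% and 15.0% with equal sums, so their balance turned too. NPC1, which exports cholesterol from lysosomes, fell to 37.5 ± 1.43 FPKM in HCC827_Er, against 120 ± 4.19 FPKM in HCC827 (difference -1.65, limma adjusted p = 2.21e-08). The protease CTSD fell to 252 ± 20.5 FPKM in HCC827_Er, against 588 ± 29.4 FPKM in HCC827 (difference -1.22, limma adjusted p = 3.3e-07, not called with equal sums). In the other direction LAMP3, a lysosomal membrane protein of dendritic cells and alveolar type II cells, rose to 12.1 ± 0.797 FPKM in HCC827_Er, against 2.15 ± 0.249 FPKM in HCC827 (difference 2.05, limma adjusted p = 3.11e-07). The protease CTSH rose to 61.8 ± 4.24 FPKM in HCC827_Er, against 21.0 ± 1.73 FPKM in HCC827 (difference 1.51, limma adjusted p = 3.16e-07).

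CD68 was also set against PSAP, the precursor of lysosomal saposins, and against CTSD. The ratio of CD68 to PSAP lay between 0.165 and 0.189 in HCC827_Er and between 0.169 and 0.172 in HCC827, so the lines overlapped. The ratio of CD68 to CTSD lay between 0.441 and 0.486 in HCC827_Er and between 0.287 and 0.307 in HCC827, with no overlap. LAPTM4B, a relative of LAPTM5, stood at 89.2 ± 3.34 FPKM in HCC827_Er and 138 ± 3.15 FPKM in HCC827 (difference -0.62, limma adjusted p = 4.62e-06, not called), the opposite direction to LAPTM5. PSAP and LAPTM4B were chosen after their values had been seen.

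**Figure D4:**
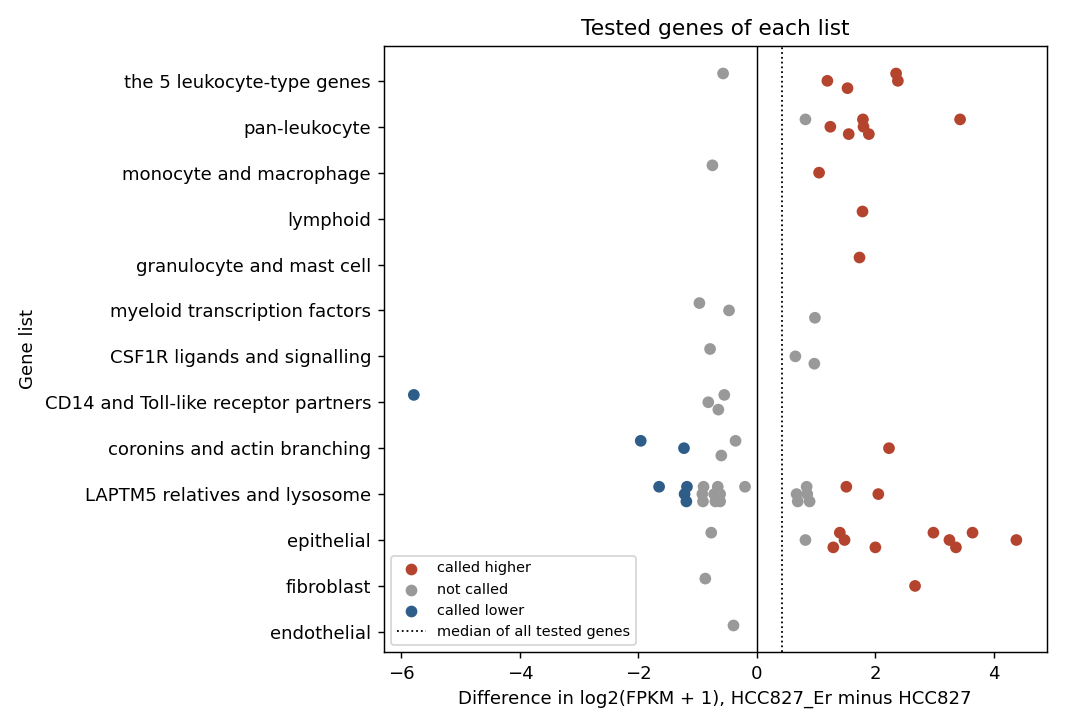
Differences in log2(FPKM + 1), HCC827_Er minus HCC827, with 1 point for each tested gene, in rows by gene list; red points were called higher, blue lower and grey not called, and the dotted line marks the median of all tested genes at 0.43. The 7 tested pan-leukocyte genes all lie right of 0, LBP lies far to the left at -5.79, and most genes of the lysosomal list lie left of 0, as CD68 does.

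Genes beside the members on their chromosomes were looked up among the 5 nearest annotated genes on either side. For CSF1R and CD68 no such neighbour was analysed here. Near CD14, TMCO6 was called higher, at 35.2 ± 1.54 FPKM in HCC827_Er and 15.0 ± 1.77 FPKM in HCC827 (difference 1.18, limma adjusted p = 3.07e-06), beside 1.19 for CD14. Near LAPTM5 the antisense RNA MATN1-AS1 stood at 1.63 ± 0.401 FPKM in HCC827_Er and 0.423 ± 0.300 FPKM in HCC827 (difference 0.89, limma adjusted p = 0.000821, not called). Near CORO1A the read-through transcript SLX1A-SULT1A3 stood at 11.4 ± 2.86 FPKM in HCC827_Er and 5.76 ± 1.57 FPKM in HCC827 (difference 0.87, limma adjusted p = 0.00254, not called), and its reads are uncertain because the locus has a near-identical copy.

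The genes whose values over the 6 libraries were closest to each member were found by Euclidean distance on the log2(FPKM + 1) scale. For CSF1R they were the sialyltransferase ST6GALNAC5 (distance 0.302), the squamous and basal cell factor TP63 (0.421) and DENND2A (0.510). For CORO1A they were AMOT, a regulator of the Hippo pathway (0.376), TTC39B (0.477) and the kinase STK32A (0.503). For LAPTM5 they were KIAA0040 (0.158), RIMS3 (0.216) and PGM2L1 (0.220), and for CD14 they were the ceramide synthase CERS1 (0.285), the RNA-binding protein MSI1 (0.309) and the protease MMP9 (0.312). The closest to CD68 was ATP6V0B, a subunit of the proton pump that acidifies lysosomes, at 115 ± 5.16 FPKM in HCC827_Er and 177 ± 5.65 FPKM in HCC827 (distance 0.117), followed by the heme enzyme UROD (0.154) and TM4SF1 (0.230).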

How the data were processed

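RNA of 6 libraries was sequenced from Illumina TruSeq RNA libraries, per the labels' protocols. The deposited table gives FPKM per Ensembl gene and library, made by the authors. The submitters' processing notes list StringTie, HISAT2 and fastp as tools, and hg19 and GRCh38.p14 as builds with no role. Versions, annotation and the rule for listing genes were not found in those sources. FPKM falls for all genes when a few are very abundant, and it shows no depth.

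Identifiers gave a symbol for 5917 of 6641 genes. Positions and exons came from GENCODE 29 on GRCh38, neighbours and promoters from RefSeq on GRCh38.p14. Transcripts were compared with blastn 2.17.0 (at least 95% identity over 100 bases). Values were taken as log2(FPKM + 1). Genes with at least 1 FPKM in 3 of the 6 libraries, 5276, were tested with limma 3.58.1 in R 4.3.3 (cell line as the only term, mean-variance trend, Benjamini-Hochberg). An exact test of 3 against 3 cannot go below p = 0.10. No library was a copy: those of a line shared at most 4 identical values at 10 FPKM or more.

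Members and lists were chosen with earlier results of these data known. Named genes were the members, ITGB2, IL34, EPCAM and 6 others where listed, from each list up to 4 called genes with the largest difference or, with none called, the 2 most abundant, the 3 nearest genes of each member and its listed neighbours. KRT8, KRT19, MARCO, ITGAM, ITGAL, MPO, KIT, IRF8, TLR3, IRAK2, CYTIP, VAV1, INPP5D, DOCK2, CORO1C, LUM, COL3A1, CDH5, PSAP, LAPTM4B and ENSG00000264772 were named after their values were seen. Alternatives were other pseudocounts and minima, 2 rescalings, no trend, the replicate block and each library left out; the ratios of means with a library left out were added after the data were seen.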

Additional observations from a re-analysis of the deposited data

How the results depend on the processing

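Over 67 refits of the 5 genes, 64 kept the direction and the side of the threshold, and none turned the direction. The other 3 came with a pseudocount of 5, which ended the calls of CSF1R (0.99), LAPTM5 (0.68) and CD14 (0.37); adjusted p-values stayed between 1.37e-07 and 0.000504. With a minimum of 5 FPKM in 3 libraries CSF1R, LAPTM5 and CD14 were not tested. The minimum of 1 FPKM had fixed the direction of CSF1R, CORO1A, LAPTM5 and CD14. That their direction held over refits of the same 6 libraries therefore adds no support. Leaving out 1 library gave 2.17 to 2.52 for CSF1R, 2.25 to 2.43 for CORO1A, 1.48 to 1.58 for LAPTM5, 1.08 to 1.25 for CD14 and -0.59 to -0.54 for CD68. Over all tested genes, 1304 were called higher and 1041 lower. A pseudocount of 5 gave 579 and 506, the minimum of 5 FPKM gave 867 higher among 3584 genes, and median-ratio rescaling gave 1671 lower; the cause was not tested. With the replicate number as a block the counts were 1304 and 1041 and the calls of the 5 genes stood (adjusted p for CD14 0.000167). Deviations of same-numbered libraries correlated at 0.106, -0.022 and 0.049, so the numbers were not taken as pairs. Levels under 1 FPKM rest on an unknown number of fragments, and none of the values shows protein.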

Other observations

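Intracellular regulators of leukocyte signalling differed among themselves. CYTIP, which binds cytohesins at the membrane of lymphocytes, stood at 2.61, 1.84 and 1.51 FPKM in HCC827_Er, against 0, 0.02 and 0 FPKM in HCC827 (difference 1.55, limma adjusted p = 7.48e-06). It met the minimum for testing through HCC827_Er alone, which fixed its direction. INPP5D, an inositol phosphatase of blood cells, stood at 1.15, 0.64 and 0.59 FPKM in HCC827_Er, against 0, 0.02 and 0 FPKM in HCC827, and was too low to test. The exchange factor VAV1 was already present in HCC827 and rose to 15.1 ± 0.341 FPKM in HCC827_Er, against 5.86 ± 1.02 FPKM in HCC827 (SD, n = 3 each; difference 1.24, limma adjusted p = 1.4e-05), a call lost with median-ratio rescaling. DOCK2, a partner of Rac in lymphocytes, went the other way, at 0.04, 0.17 and 0.24 FPKM in HCC827_Er, against 1.10, 0.36 and 1.22 FPKM in HCC827, untested. These genes were chosen for description after their values had been seen.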
